A study of Homo sapiens with 6 samples.

Results

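The GPX3 gene and its companions in cellular peroxide defense were followed in RBM12-depleted iNeurons. The list was made by gene name and held 10 genes, the glutathione peroxidases GPX1, GPX3, GPX4, GPX7 and GPX8, the peroxiredoxins PRDX1 and PRDX2, the superoxide dismutases SOD1 and SOD2, and catalase, CAT. Of these, 9 were among the 19823 genes of the table, and all 9 had enough reads to enter the comparison, which covered 18130 genes. GPX8 was not analysed here. The genes were chosen by name around GPX3, which was itself selected on its measured difference between isoproterenol and untreated samples. The response of its members is therefore given as a description, with no p for any member, and counts of members past a threshold stand only beside the share of all genes past it.

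The iNeurons were glutamatergic excitatory neurons made from the human iPSC line WTc11 in its parental form with native receptor levels. They carried a knockdown of RBM12, an RNA-binding protein, by CRISPR interference, in which a catalytically dead Cas9 fused to a repressor silences the promoter that a guide RNA marks. All 6 samples carried it, 3 of them untreated and 3 given isoproterenol, an agonist of beta-adrenergic receptors that raises cAMP, and the labels number the replicates 1 to 3 in each group. The labels give no dose or duration. Per the study's methods the line was clonal, and NGN2 expressed under doxycycline drove differentiation. Without a control-guide sample in hand, the depth of the knockdown was not measured here. RBM12 itself measured 244.3, 278.7 and 266.9 normalized counts in the untreated and 194.6, 237.6 and 232.8 in the isoproterenol samples. Each isoproterenol value lay below each untreated one, with a log2 fold change of -0.25 that did not pass the test (limma adjusted p 0.607, or 0.131 when replicate numbers were fitted as a block). What part RBM12 had in the other results was not tested. The libraries held 18116816 to 21488793 reads. Normalized counts are reads per gene divided by a size factor for the sample.

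Marker genes were read to check the label. The glutamatergic neuron markers summed to 145700 to 149100 normalized counts in untreated and 147100 to 152200 in isoproterenol samples, over 10 of 10 listed genes, led by STMN2. Most of this sum came from STMN2, MAP2 and DCX, which averaged 65330, 33640 and 26540 in untreated samples. These genes are not particular to glutamatergic neurons. SLC17A6 and SLC17A7, the vesicular glutamate transporters, averaged 13440 and 3055 in untreated samples. NEUROD1 and NEUROD2 did not exceed 12 in any sample and TUBB3 lay between 69.2 and 94.4. Markers of other neuron types were not read. The 3 of 7 astrocyte markers with values summed to 3138 to 3469 in untreated and 3026 to 3361 in isoproterenol samples, nearly all from the transporter SLC1A2, which neurons can also express. The 3 of 8 mesenchymal and fibroblast markers with values, led by COL1A2, summed to 25.1 to 38.7 and 22.6 to 41.9. The 3 of 6 pluripotency markers with values, led by LIN28A, summed to 19.4 to 19.8 and 15.4 to 28.8, and SOX2 was at 0 in 5 of the 6 samples. Of the 6 proliferation markers only CCNB1 had values, 112.2 to 147.2 in untreated and 123.1 to 144.7 in isoproterenol samples. The named markers beyond the highest of each list were chosen after their values were seen. GFAP, ALDH1L1, MKI67, TOP2A and NANOG were among the markers not analysed here.

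Superoxide, a by-product of respiration and of oxidases, is turned into hydrogen peroxide by the superoxide dismutases. Hydrogen peroxide is then removed by catalase in peroxisomes, by the glutathione peroxidases, which draw electrons from glutathione, and by the peroxiredoxins, which draw them from thioredoxin. Brain tissue is known for low catalase activity and for a strong reliance on the glutathione and thioredoxin routes. Several glutathione peroxidases carry selenocysteine, an amino acid read from a TGA codon that elsewhere ends translation.

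The active-site codon divides the 4 measured glutathione peroxidases by chemistry and is shown for that reason. The lines below give 27 bases of coding sequence, 5′ to 3′, from the GENCODE canonical transcripts on GRCh38, with the active-site codon in capitals.

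GPX1: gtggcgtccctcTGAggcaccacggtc

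GPX3: gtggccagctacTGAggcctgacgggc

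GPX4: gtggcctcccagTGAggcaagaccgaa

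GPX7: gtggccagcgagTGCggcttcacagac

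In GPX1 (chr3:49358120-49358146, minus strand), GPX3 (chr5:151025457-151025483, plus strand) and GPX4 (chr19:1105391-1105417, plus strand) the codon is TGA, number 49, 73 and 73 of the reading frame. In GPX7 (chr1:52606702-52606728, plus strand) it is TGC, number 57, which encodes cysteine. Each stretch lies within 1 coding exon. GPX3, the member with the largest rise, and GPX1 and GPX4, with log2 fold changes of -0.058 and -0.028, thus share the selenocysteine codon.

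GPX3 (ENSG00000211445; chromosome 5, 151020591 to 151028988, GRCh38) encodes the secreted glutathione peroxidase, which acts outside the cell. It measured 328.9, 339.6 and 397.2 normalized counts without isoproterenol (replicates 1 to 3 in order) and 487.9, 474.0 and 601.1 with it. Every isoproterenol sample lay above every untreated sample. In bulk RNA, a change in the number of expressing cells and a change in RNA per cell cannot be told apart. The mean went from 355.3 ± 36.7 to 521 ± 69.7 (SD, n = 3 per group), a ratio of 1.47, with a log2 fold change of 0.55 (SE 0.099). SEs of the members are from the fit without pairs. Fold changes were taken on log2(normalized count + 1), which moves little at this level. Within pairs of the same replicate number, the log2 ratio was 0.57, 0.48 and 0.60. The rise was thus similar in size in each pair, with 0.116 (log2) between the lowest and the highest. GPX3 ranked 533 of 18130 genes by log2 fold change, and 2.93% of all genes had a larger one.

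**Figure D1:**
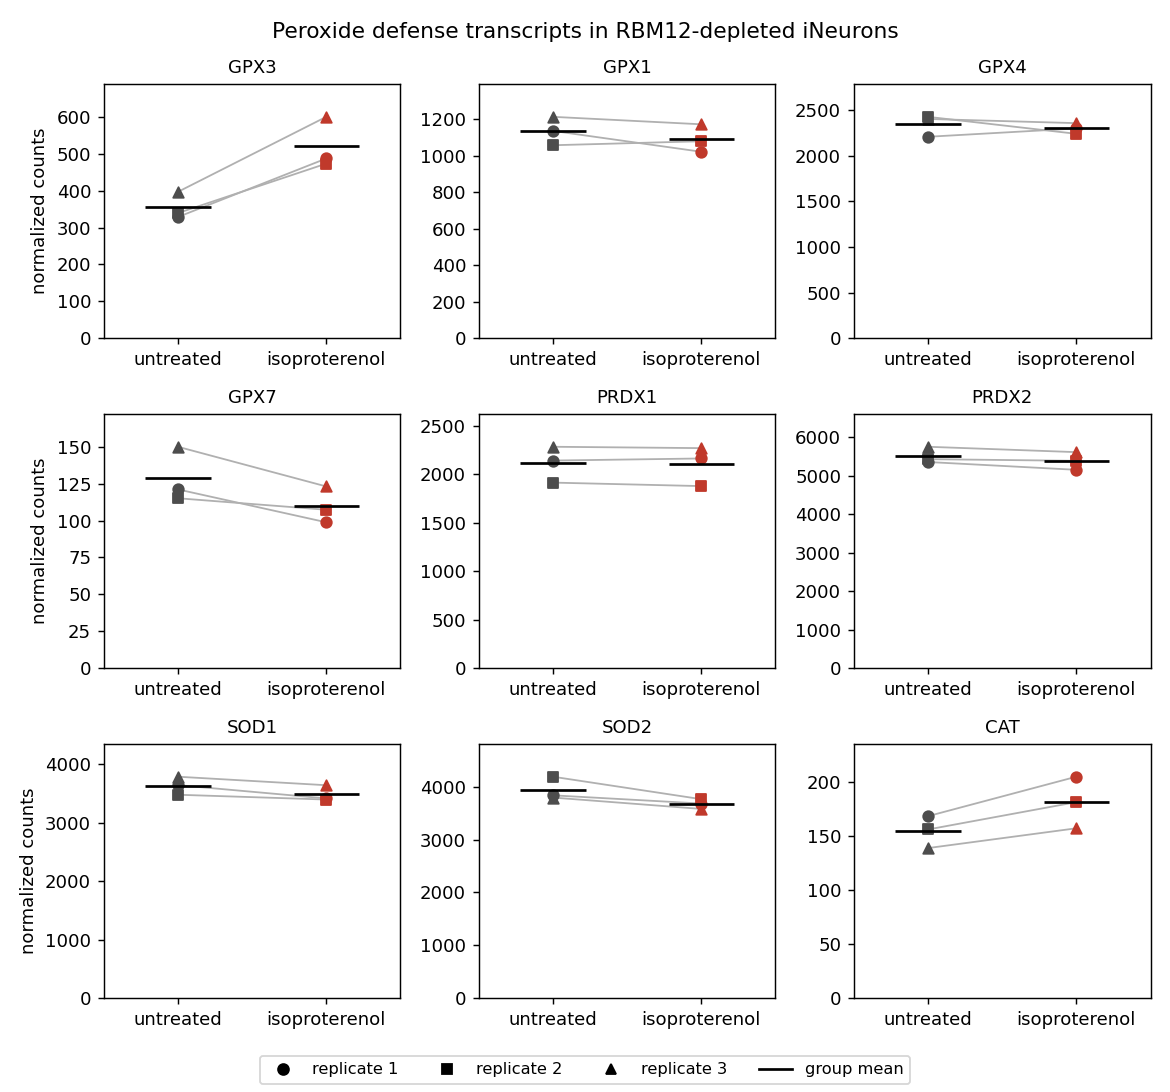
Normalized counts (vertical axes, from 0) of the 9 measured genes in each untreated (grey) and isoproterenol (red) sample; marker shapes give the replicate number, thin lines join same-numbered samples and black bars are group means. GPX3 runs from 328.9 to 397.2 in untreated and from 474.0 to 601.1 in isoproterenol samples, while most other members stay near their untreated level.

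CAT (ENSG00000121691; chromosome 11, 34438934 to 34472060) encodes catalase, which splits hydrogen peroxide into water and oxygen. It measured 168.1, 155.8 and 138.6 normalized counts without isoproterenol and 204.6, 181.1 and 156.9 with it, again in replicate order. The groups overlapped, since isoproterenol replicate 3 lay below untreated replicate 1. In each pair the isoproterenol sample was nonetheless the higher, with log2 ratios of 0.28, 0.22 and 0.18. The log2 fold change was 0.22 (SE 0.131), and it was 0.13 without isoproterenol replicate 1. GPX3 and CAT were the 2 members with a higher mean under isoproterenol.

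The remaining glutathione peroxidases did not share the rise of GPX3. GPX1 (ENSG00000233276; chromosome 3, 49357174 to 49358605), the main peroxidase of cytosol and mitochondria, measured 1136.1, 1057.6 and 1213.4 normalized counts in untreated and 1021.8, 1079.5 and 1172.4 in isoproterenol replicates 1 to 3. Its groups overlapped, and its log2 ratios of -0.15, 0.029 and -0.050 in pairs 1 to 3 had no common direction. The log2 fold change was -0.058 (SE 0.066). The table also lists GPX1P1, a processed copy of GPX1, at 92.9 to 119.0 normalized counts, and reads that fit both have an uncertain origin. GPX1 also shares 572 exonic bases on its own strand with ENSG00000290318.

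GPX4 (ENSG00000167468; chromosome 19, 1103982 to 1106791) reduces lipid peroxides in membranes and protects cells from ferroptosis. It measured 2210.6, 2429.7 and 2406.2 normalized counts in untreated and 2302, 2243.1 and 2360.3 in isoproterenol replicates 1 to 3. The isoproterenol values all lay within the range of the untreated ones. The log2 fold change was -0.028 (SE 0.050), with pair values of 0.058, -0.12 and -0.028.

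GPX7 (ENSG00000116157; chromosome 1, 52602371 to 52609051), a peroxidase of the endoplasmic reticulum, was the member with the largest fall. It measured 121.1, 115.1 and 150 normalized counts in untreated and 98.8, 107.3 and 123.1 in isoproterenol replicates 1 to 3. The groups overlapped through replicate 3, the highest sample of each group. The isoproterenol sample was lower in each pair, by log2 ratios of -0.29, -0.10 and -0.28. GPX7 rested on 93 to 145 reads per sample, and the SE of its log2 fold change of -0.23 was 0.151. Without untreated replicate 3 the change was -0.11.

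PRDX1 (ENSG00000117450; chromosome 1, 45510914 to 45542732) and PRDX2 (ENSG00000167815; chromosome 19, 12796820 to 12801800) encode cytosolic peroxiredoxins. PRDX1 measured 2143.7, 1915.9 and 2286.2 normalized counts in untreated and 2165.3, 1879.8 and 2272.1 in isoproterenol replicates 1 to 3. Its pairs were nearly level, with log2 ratios of 0.014, -0.027 and -0.009, although replicate 2 lay well below the others in both groups. The log2 fold change was -0.007 (SE 0.075), and its sign turned when some samples were left out, reaching 0.072 without isoproterenol replicate 2. PRDX2 measured 5352.6, 5426.4 and 5748.5 in untreated and 5149.8, 5383.4 and 5608.9 in isoproterenol replicates 1 to 3. Its groups overlapped, each pair was slightly lower (log2 ratios of -0.056, -0.011 and -0.035), and the log2 fold change was -0.034 (SE 0.044). PRDX1 shares 501 exonic bases with MMACHC, and PRDX2 shares 247 with ENSG00000267062, both on the opposite strand. Whether counting used the strand is not given in the sources used here. This leaves the origin of reads there uncertain.

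SOD1 (ENSG00000142168; chromosome 21, 31659666 to 31668931) encodes the cytosolic copper-zinc dismutase and SOD2 (ENSG00000112096) the mitochondrial manganese enzyme. SOD1 measured 3642.2, 3477.6 and 3786.1 normalized counts in untreated and 3414.5, 3395.2 and 3640.4 in isoproterenol replicates 1 to 3. Its groups overlapped, with log2 ratios of -0.093, -0.035 and -0.057 in pairs 1 to 3 and a log2 fold change of -0.061 (SE 0.047). SOD2 measured 3840.6, 4193.7 and 3798.5 in untreated and 3685, 3767.7 and 3583 in isoproterenol replicates 1 to 3. Every isoproterenol value of SOD2 lay below every untreated value. The gap between the groups was small, from 3767.7 to 3798.5, and the log2 fold change was -0.099 (SE 0.047; pairs -0.060, -0.15 and -0.084). Without untreated replicate 2, the highest sample, the SOD2 change was -0.055. In GENCODE release 44 SOD2 stands under another identifier (chromosome 6, 159669069 to 159762529) and shares exonic bases with WTAP, ACAT2 and SOD2-OT1, which makes its count uncertain.

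**Figure D2:**
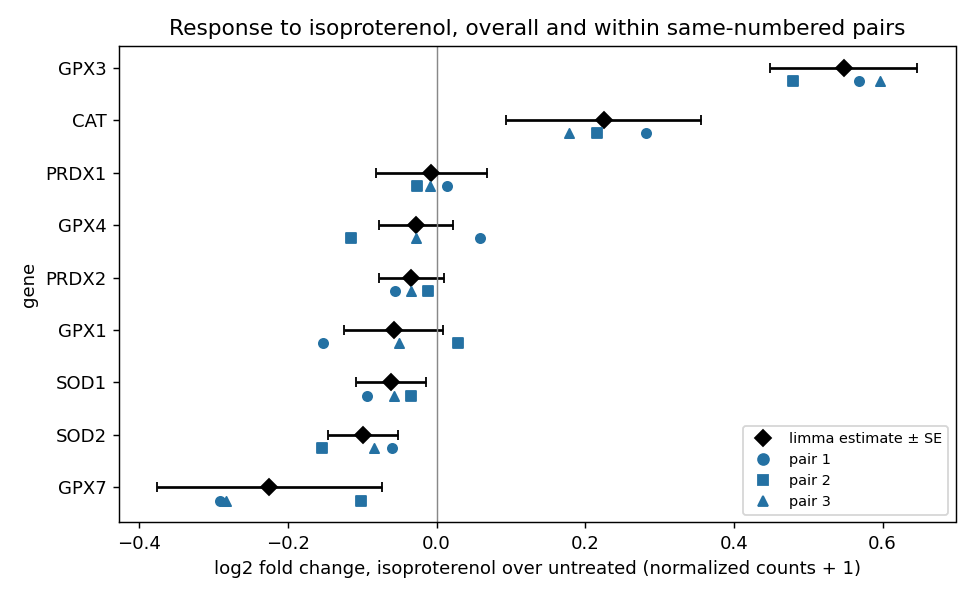
Log2 fold change of isoproterenol over untreated (horizontal axis) for each of the 9 genes; black diamonds with bars are the estimate ± SE over 3 samples per group, and blue markers are the log2 ratios within same-numbered pairs. GPX3 stands at 0.55 and CAT at 0.22 with their pairs on the same side of 0, and the other members lie between -0.23 and 0.

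Of the 9 genes, 2 had a higher and 7 a lower mean with isoproterenol, with a median log2 fold change of -0.034 against 0.0015 over all genes tested. Without GPX3 the median of the other 8 was -0.046. The values were higher in all 3 pairs for 2 members (GPX3 and CAT) and lower in all 3 for 4 (GPX7, PRDX2, SOD1 and SOD2), while 18.5% of all genes were higher and 17.6% lower in all 3 pairs. Groups did not overlap for GPX3 and SOD2, as for 12.9% of all genes. In the limma fit without pairs 0 members passed FDR 0.05, against 0.0165% of all genes (0.00552% higher and 0.011% lower). Unadjusted, 2 members were under 0.05 in limma, as were 1393 of the 18130 genes. Without pairs edgeR called 0 members, and over all genes 1 higher and 2 lower. DESeq2 called 1 member, GPX3, and over all genes 19 higher and 4 lower. With the replicate number as a block, GPX3 passed as higher and SOD2 as lower, where 4.88% of all genes passed (2.82% higher and 2.06% lower). Because the list was formed on this comparison, nothing is read from these counts. The GPX3 rise was 0.44 (log2) without isoproterenol replicate 3 and 0.63 without untreated replicate 3, its lowest and highest values with 1 sample left out.

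For 8 of the 9 members the same replicate was the highest in both groups. GPX1, GPX3, GPX7, PRDX1, PRDX2 and SOD1 were highest in replicate 3 whether or not isoproterenol was given. SOD2 was highest in replicate 2 and CAT in replicate 1 in both groups, and only GPX4 differed, with its maximum in untreated replicate 2 and isoproterenol replicate 3. How many of all genes share this trait was not counted, so nothing is read from it about the members. Deviations of same-numbered samples correlated over 11587 genes, at 0.269, 0.493 and 0.388 for pairs 1 to 3. For CAT, untreated values spanned 138.6 to 168.1 while the pair ratios kept within 0.104 (log2) of each other.

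Levels were compared between genes per kilobase of annotated exon, since longer transcripts collect more reads. The length joins all exons annotated for a gene in release 44, and which transcripts were expressed was not measured. In untreated samples PRDX2 had the highest level, 2709 ± 104 normalized counts per kilobase (SD, n = 3), followed by SOD1 with 1841 ± 78.2. GPX4 with 1277 ± 65.4 and PRDX1 with 1258 ± 111 came next and did not differ beyond their spread. GPX1 stood at 793.1 ± 54.4, GPX3 at 118.2 ± 12.2, GPX7 at 76.1 ± 11.0 and CAT at 43.1 ± 4.14. By this measure GPX3 was thus among the scarce transcripts of this group before stimulation. With isoproterenol GPX3 reached 173.4 ± 23.2 per kilobase and kept its place between GPX1 and GPX7. The gene model behind the counts is not known for any of these genes, so the order is approximate. SOD2 was left out of it because its exons in release 44 cover 18144 bases.

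**Figure D3:**
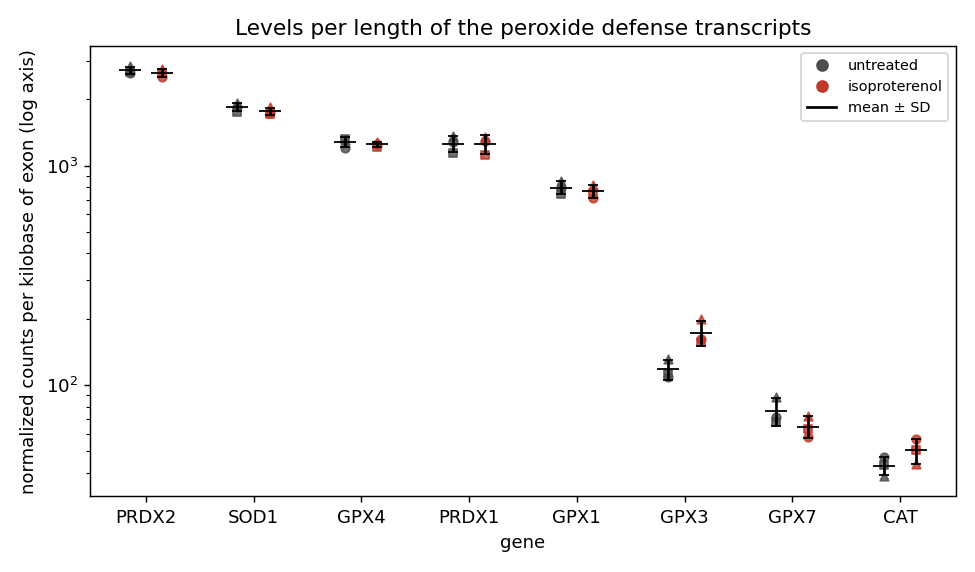
Normalized counts per kilobase of exon (vertical log axis) of 8 genes in untreated (grey) and isoproterenol (red) samples, with markers for replicates and black bars for mean ± SD of 3 samples. PRDX2, SOD1, GPX4, PRDX1 and GPX1 lie at or above 713.5 in every sample, and GPX3, GPX7 and CAT at or below 200.

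Among the 4 measured glutathione peroxidases, GPX3 made up a small part of the summed level per kilobase. Its share was 5.03%, 5.05% and 5.56% without isoproterenol and 7.43%, 7.19% and 8.43% with it, in replicate order. The share of GPX4, the most abundant, stayed between 54.0% and 59.0% in all 6 samples, and that of GPX1 between 32.6% and 36.5%. GPX7 held 3.04% to 3.73% in untreated and 2.67% to 3.06% in isoproterenol samples.

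The stretch before the start of each gene was read from RefSeq promoters (GRCh38.p14), which held 8 of the 10 listed genes. PRDX1 and SOD1 were not searched. GPX3 and CAT, the members that were higher in each pair, are shown, each as the 250 bases before the start, 5′ to 3′ on the gene's strand. GPX3 spans chr5:151020341-151020590 and CAT spans chr11:34438684-34438933, both on the plus strand. Capitals mark CCAAT or its reverse complement, the box bound by the factor NF-Y.

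GPX3 promoter: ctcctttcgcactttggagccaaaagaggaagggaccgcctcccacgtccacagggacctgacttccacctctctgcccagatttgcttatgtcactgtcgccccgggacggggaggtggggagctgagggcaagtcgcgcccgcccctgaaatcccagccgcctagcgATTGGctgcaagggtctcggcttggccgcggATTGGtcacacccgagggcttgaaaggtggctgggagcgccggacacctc

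CAT promoter: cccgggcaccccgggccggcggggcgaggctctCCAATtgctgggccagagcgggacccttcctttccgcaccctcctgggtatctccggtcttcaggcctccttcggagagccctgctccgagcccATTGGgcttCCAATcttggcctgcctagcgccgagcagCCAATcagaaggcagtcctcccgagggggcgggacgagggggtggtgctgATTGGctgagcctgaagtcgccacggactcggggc

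Neither stretch held the cAMP response element TGACGTCA, its half-site TGACG, or the antioxidant response core TGACNNNGC, searched on both strands. These letters occurred in 1.65%, 21.2% and 10.9% of all 35116 promoters of this length, and TGACG is contained in TGACGTCA. CCAAT occurred 2 times before GPX3 and 5 times before CAT, in a search added after the stretches had been seen, and in 32% of all promoters at least once. It was not found before GPX1, GPX7 or PRDX2, while some of the annotated starts of GPX4 and SOD2 had it. TGACG was present before each of 3 starts of GPX4 and before 1 of 4 starts of SOD2. These matches describe the letters of a short window and not the binding of a factor.

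The genes whose pattern was most like that of GPX3 were sought among the 11587 that averaged 100 or more normalized counts. Over the 6 samples, DOP1A (Pearson's r = 0.996), SLC22A18 (0.992), SGK1 (0.989), KLHL21 (0.983) and EGFL7 (0.983) followed GPX3 most closely. All 5 had smaller log2 fold changes than GPX3, from 0.078 for DOP1A to 0.30 for SGK1, the kinase induced by serum and glucocorticoids. After the mean of each pair had been subtracted, KIAA1549, CRABP2, ATP1B3, POU6F1 and THSD7A came closest (r from 0.9997 to 0.9999). That measure rests on 3 pair differences. Both sets of 5 were picked as the highest among 11587 genes over 6 samples, so a high r comes with the search. A link of these genes to GPX3 was not tested.

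Other genes around peroxide defense were read from lists of peroxidases, thioredoxin and glutathione enzymes, selenoproteins and their synthesis, NRF2 regulators and targets, peroxide sources and peroxisome import. Each gene counted once, 106 of 120 were tested, and 0 passed FDR 0.05 in limma or edgeR without the block. Before adjustment 6 of the 106 were under 0.05 in limma, against 1393 of all 18130 genes. In the blocked fit 3 rose and 3 fell (5.66%, against 4.88% of all genes). The median log2 fold change of the 106 was -0.0078.

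MAOA (ENSG00000189221), a mitochondrial oxidase that releases hydrogen peroxide as it degrades monoamines, rose in the blocked fit. It measured 245.4, 196.4 and 203.8 normalized counts in untreated and 323.3, 264.1 and 320 in isoproterenol replicates 1 to 3, with no overlap. Its log2 fold change was 0.49 (SE 0.115 without and 0.095 with the block), close to that of GPX3. The limma adjusted p was 0.205 without and 1.20e-04 with the block, and 5.97e-05 to 0.836 over all alternatives. SEPSECS (ENSG00000109618), which makes selenocysteine on its tRNA, rose by 0.39 (log2, SE 0.121) in the blocked fit, and its groups did not overlap (limma adjusted p 0.446 without and 0.0367 with the block, 0.0329 to 0.935 over the alternatives). SELENOI (ENSG00000138018), a selenoprotein of phospholipid synthesis, rose by 0.13 (log2, SE 0.027) in that fit with overlapping groups (limma adjusted p 0.595 and 5.65e-04, range 2.43e-04 to 0.935). It shares 487 exonic bases with ADGRF3 on the opposite strand.

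The 3 that fell in the blocked fit were TXN, PARK7 and TXNIP. TXN (ENSG00000136810), the thioredoxin that recharges peroxiredoxins, measured 2903.9, 2612.6 and 2842.7 normalized counts in untreated and 2509.5, 2425.3 and 2576.7 in isoproterenol replicates 1 to 3. Its groups did not overlap, with a log2 fold change of -0.15 (SE 0.050 without and 0.033 with the block; limma adjusted p 0.453 without and 8.84e-04 with the block, 1.77e-04 to 0.935 over the alternatives). PARK7 (ENSG00000116288), which protects neurons from oxidative stress, had a log2 fold change of -0.12 (SE 0.045 without and 0.030 with the block) and no overlap (limma adjusted p 0.541 and 0.00437, range 0.00116 to 0.935). TXNIP (ENSG00000265972), the inhibitor of thioredoxin, measured 155.6, 396.7 and 154.1 in untreated and 91.8, 264.1 and 86.2 in isoproterenol replicates 1 to 3. Replicate 2 was far above the others in both groups, so the groups overlapped, while the pairs gave log2 ratios of -0.76, -0.58 and -0.83. Its log2 fold change was -0.72 (SE 0.665 without and 0.118 with the block; limma adjusted p 0.857 without and 2.57e-06 with the block, 6.63e-07 to 0.9995 over the alternatives), and it was -1.24 without isoproterenol replicate 2 and -0.27 without untreated replicate 2.

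**Figure D4:**
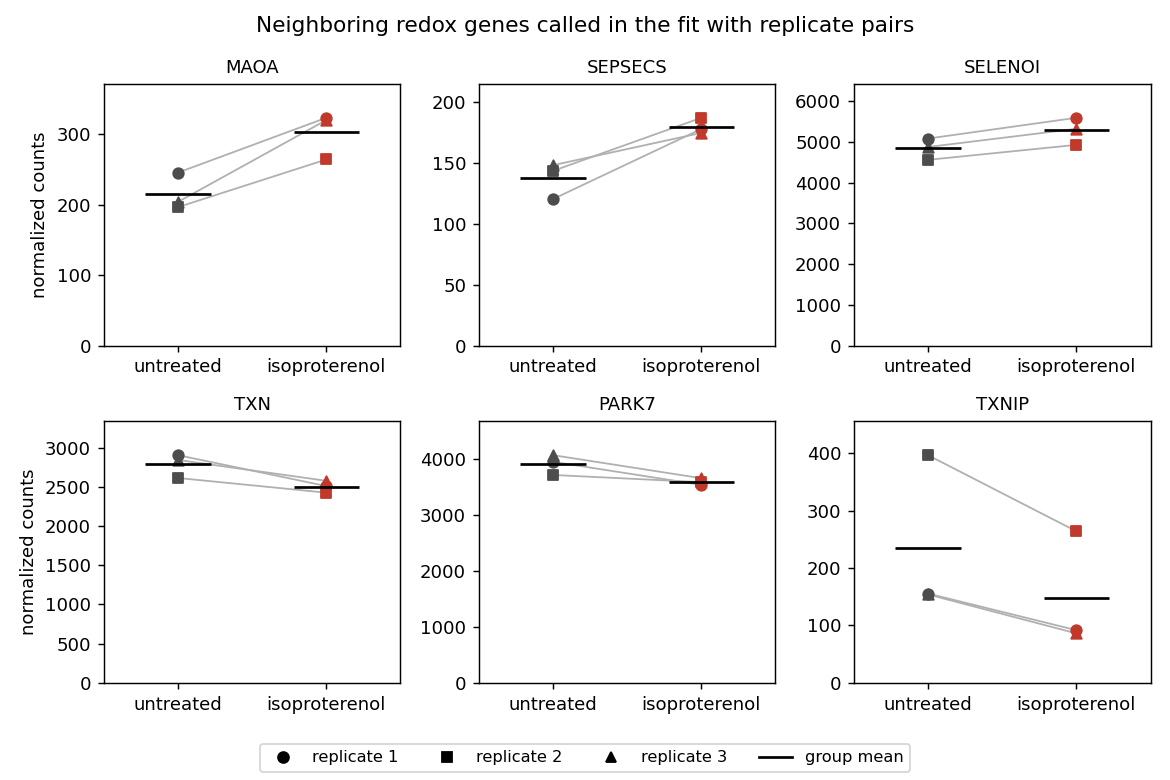
Normalized counts (vertical axes, from 0) of the 6 neighboring genes that passed FDR 0.05 in limma with the replicate block, by group and replicate, drawn as in the plot of the members. MAOA, SEPSECS and SELENOI are higher and TXN, PARK7 and TXNIP lower with isoproterenol in each of the 3 pairs; for TXNIP, replicate 2 stands at 396.7 and 264.1, above all other samples.

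By list, calls with the block stand beside 4.88% of all genes called in that fit, and no list was tested as a set. They numbered 1 lower of 6 tested genes in the list of further peroxidases and dismutases and 2 lower of 13 thioredoxin genes. The first of these lists also held CCS and PARK7. Its only call was PARK7, and PRDX3, PRDX4, PRDX5 and PRDX6 did not pass. Higher were 1 of 10 selenoprotein synthesis genes, 1 of 11 selenoproteins and 1 of 10 peroxide sources. There were 0 of 17 among genes of glutathione synthesis and recycling, 0 of 11 glutathione transferases, 0 of 21 NRF2 regulators and targets and 0 of 13 peroxisome genes. The median log2 fold change of the NRF2 list was 0.0093 and that of the glutathione list -0.036.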

How the data were processed

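Poly(A) RNA from 6 samples was sequenced. The authors aligned reads to GRCh38 with STAR, counted them per gene with featureCounts and normalized with DESeq2; versions, annotation release and strand setting are not given in the sources used here. The values the authors deposited are a signal, each gene's read count divided by its sample's size factor. All values above 0 (100%, tolerance 0.01) were whole multiples of 1 step per sample, which gave whole reads.

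Genes with more than 5 reads in at least 4 samples were kept (18130 of 19823). Groups were compared by limma 3.58.1 in R 4.3.3 (trend, robust, two-sided, Benjamini-Hochberg over all genes) on log2(normalized count + 1). Nothing says whether replicates were separate cultures, so p-values measure the spread between these samples. Deviations of same-numbered samples correlated at 0.269, 0.493 and 0.388 over 11587 genes, all over 0.1, and same-numbered samples were treated as pairs, with a replicate block fitted as an alternative, as were edgeR 4.0.16 and DESeq2 1.42.0 on recovered reads (edgeR called 1 gene higher and 2 lower, DESeq2 19 and 4), TMM or total-read scaling, other filters and pseudocounts, and leaving out each sample. Replicates of a group were distinct libraries (chi-square per degree of freedom 3.44 to 5.73). Named genes were the members, list genes past FDR 0.05 in the fit with or without the block, the 2 largest changes of each list at a mean of at least 10, the highest marker of each marker list, and the 5 genes most like GPX3 by each measure. Positions came from GENCODE release 44, which held 19742 of the identifiers. The members and lists were chosen with earlier results of these data known.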

Additional observations from a re-analysis of the deposited data

How the results depend on the processing

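Taking the replicate pairs into account moved the calls most. At FDR 0.05 limma called 1 gene higher and 2 lower without the block, 511 and 374 with the replicate block, and 529 and 448 in edgeR with the block. DESeq2 called 19 and 4, the filter on a mean of at least 50 left 0 higher, and a pseudocount of 5 gave 2 higher. With 1 sample left out, 0 to 43 were higher and 2 to 24 lower, the highest without isoproterenol replicate 2. For the neighboring genes, 0 passed without the block, and 3 rose and 3 fell with the block in limma and in edgeR alike; with 1 sample left out the count of higher genes was 0 to 1 (MAOA, without isoproterenol replicate 2). For the peroxide defense genes 0 passed without the block in limma and in edgeR on all 6 samples. With the block 1 was higher (GPX3) and 1 lower (SOD2) in both. DESeq2, fitted without the block, called 1 higher (GPX3). With 1 sample left out, also without the block, 0 to 1 was higher (GPX3, without isoproterenol replicate 2). The member median ran from -0.065 to -0.0088 with 1 sample left out, and each member's change moved by less than the spread between replicates in all 16 alternatives. SLC7A11 turned from 0.21 to -0.034 (log2) without isoproterenol replicate 1, and was at most 0.5649 with another sample left out. Among the members, GPX7 and CAT had the fewest reads and the largest SEs (0.151 and 0.131). Some neighboring genes had larger ones, such as TXNIP (0.665 without the block).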

Other observations

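Groups did not overlap for 12 of the 106 tested list genes, against 12.9% of all genes. Some of these did not pass FDR 0.05 in limma with or without the block. Those among the 2 largest changes of their list are described here, while IDH2, ERO1A and SESN2 were also of this kind. SRXN1, the enzyme that repairs overoxidized peroxiredoxins, measured 10.4, 12.6 and 23.8 normalized counts without isoproterenol and 33.9, 26.5 and 26.7 with it, in replicate order (log2 fold change 0.93, SE 0.328 in the fit without the block, as for those that follow; limma adjusted p 0.509 without and 0.0767 with the block). Its log2 ratio differed by pair, at 1.61, 1.02 and 0.16, and it shares 2292 exonic bases with ENSG00000270299 on the same strand. CYBB, a catalytic subunit of NADPH oxidase, measured 9.3 to 10.4 in untreated and 12.3 to 16 in isoproterenol samples (0.47, SE 0.365). SELENOH, a nuclear selenoprotein, measured 41.8 to 44.5 and 50.3 to 55.9 (0.28, SE 0.201), SELENOO, of mitochondria, 261 to 271 and 289.3 to 302.2 (0.14, SE 0.093), and PEX7, a peroxisome import receptor, 50.1 to 60 and 65.6 to 66.9 (0.26, SE 0.184).

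The other largest changes by list had overlapping groups and did not pass either fit. Their log2 fold changes were -0.071 for PRDX4, 0.23 for CHAC1, -0.45 for OPLAH, 0.28 for GSTM2, -0.16 for GSTM4, 0.25 for SELENOP, 0.21 for SLC7A11 and -0.13 for PEX3. SELENOP shares 1452 exonic bases with CCDC152 on the opposite strand.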
